A study of Mus musculus with 4 samples.

Results

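The comparison described here set 1 RNA sequencing library, from cells that received a virus labelled for knockdown of AK046375, a long noncoding RNA, and were then deprived of oxygen and glucose, against 1 library from cells with a control virus in normal culture. These were chosen by their titles and are 2 of the 4 libraries of the series. All came from HT22, an immortalised mouse hippocampal line whose strain is labelled C57BL/6. A diluted adenovirus was added 2 h after seeding, and oxygen-glucose deprivation (OGD) then meant medium without glucose and nitrogen in the place of oxygen for 6 h. The other libraries carried each factor alone: the knockdown-labelled virus in normal culture, and the control virus in OGD. Every cell population had therefore been infected with a virus, and no uninfected culture was part of the design. At the level of the series, title and design name a lentivirus and overexpression, whereas each library's own labels name an adenovirus and a knockdown, so the wording "labelled knockdown" is kept. A search by name found 0 genes matching AK046375, its level was not analysed here, and whether the virus lowered or raised it was not checked.

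With 1 library in each group there was no spread between replicates, and no test between conditions and no p-value were possible. The baseline library (control virus, normal culture) and the combined library (knockdown-labelled virus, OGD) differ in both factors, whose separate parts cannot be told apart from this pair. Values of the labelled-knockdown library and of the OGD library are given beside them for context, and their ratios share the baseline library with the combined ratio. Values in all libraries are listed throughout in the order baseline, labelled knockdown alone, OGD alone, combined.

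Oxygen and glucose loss starves cells of ATP and engages several response systems. Unfolded proteins free the heat shock factor HSF1, which drives chaperone genes, and the kinases that phosphorylate eIF2-alpha slow translation while favouring that of ATF4. Free zinc activates MTF1 at the metallothionein genes, electrophiles and heme act through NRF2 and BACH1 on Hmox1, and low oxygen stabilises the HIF-alpha proteins, mainly after transcription. Txnip, a binding partner of thioredoxin, is transcribed in response to glucose through MondoA, and its level is known to drop when glucose is withdrawn.

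Of 47069 genes in the files, 12427 had a mean of at least 1 FPKM (fragments per kilobase of transcript, scaled to library depth) over the baseline and combined libraries and were compared. The combined library had 2788 genes at 2-fold or more above baseline, which is 22.4% of the compared genes, and 2352 at 2-fold or more below, which is 18.9%. Each list count given below is to be read beside these shares. Ratios are log2 of FPKM + 1, a scale on which genes with little expression differ by less than their plain FPKM fold. The median ratio was -0.01, with 5% of genes below -1.91 and 5% above 2.11. By abundance, genes between 100 and 1000 FPKM at baseline were 2-fold or more higher in 5.79% of cases and lower in 27.9%. The baseline value both sets these groups and divides the ratio, so groups high at baseline lean toward lower ratios by construction. A further 876 genes under 1 FPKM at baseline passed the filter through the combined value, so they had to be higher. They gave 640 of the 2788 genes counted as higher. With a mean FPKM of 5 or more, 1880 genes were 2-fold or more higher and 1868 lower. At 4-fold or more, 730 genes were higher and 533 lower. Genes at 2-fold or more were fewer on the higher side in the OGD library over baseline, at 1358 (10.9%), with 3028 lower (24.4%). The labelled-knockdown library over baseline had 528 higher (4.25%) and 1719 lower (13.8%). The all-gene medians of these comparisons were -0.27 and -0.29. The filter used the baseline and combined libraries, so it admitted genes high in the combined library alone and not those high in another library alone. With the filter on the mean of all 4 libraries, which kept 12255 genes and was applied to every library after seeing the data, the higher counts were 2712, 1422 and 572 in the combined, OGD and labelled-knockdown libraries.

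Depth was alike, with 23327743 to 27539845 expected counts in a library. The libraries differed in make-up: transcript length, averaged with expected counts as weights, was 1835, 1545, 1815 and 2153 nt, longest in the combined library. Long transcripts were higher in it more often, with a median log2 ratio over baseline of 0.91 for the 750 genes of at least 5000 nt and -0.43 for the 1643 genes between 500 and 1000 nt. Base composition moved with the ratio as well. Genes whose transcripts averaged under 42% GC had a median of 1.13 and were 2-fold or more higher in 55.6% of cases. Genes at or above 58% GC had a median of -0.82, and 8.03% of them were 2-fold or more higher while 43.8% were lower. The part of length and GC content in each result was not tested, and list medians with both trends removed are given below beside the direct values of most lists.

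**Figure D1:**
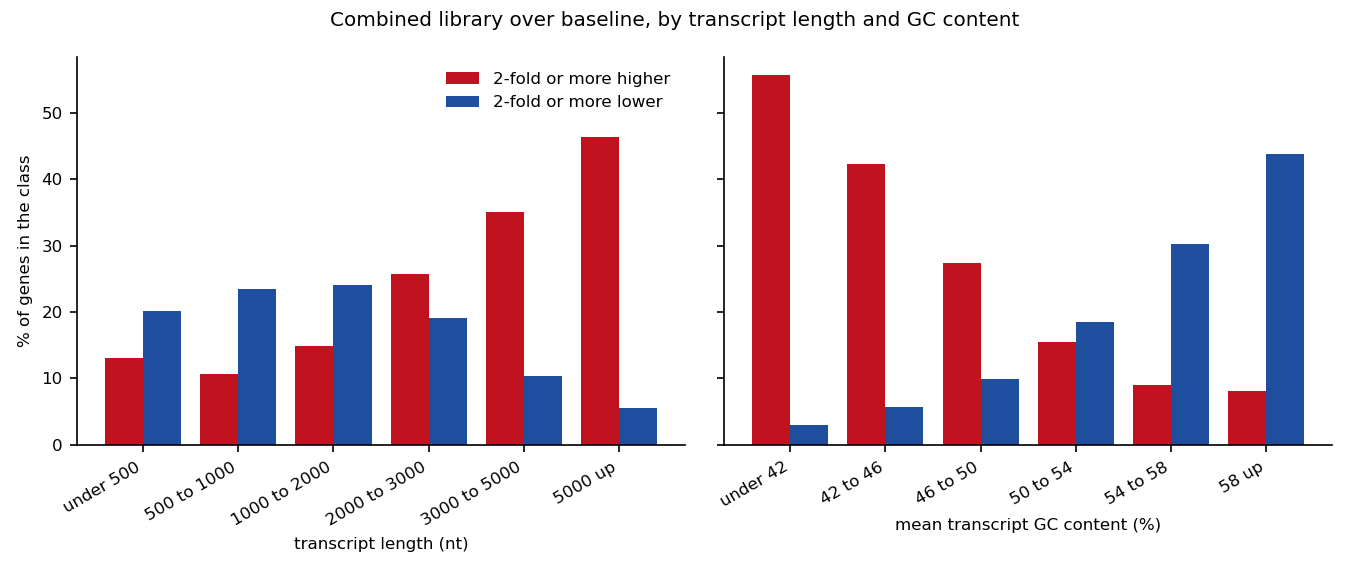
Bars give the percentage of compared genes 2-fold or more higher (red) or lower (blue) in the combined library than in the baseline library, by transcript length in nt (left) and by mean transcript GC content in percent (right). The share of higher genes runs from 55.6% under 42% GC to 8.03% at 58% GC or more, while the share of lower genes runs from 3.03% to 43.8%.

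Markers of cell identity did not follow the neuronal label closely. Of 18 neuronal markers, 3 passed the filter: Eno2, Tubb3 and Map2, at 47.5, 40.6 and 1.08 FPKM at baseline. A further 10 were at 0 in both the baseline and combined libraries, among them Rbfox3 (the NeuN antigen), Snap25, Dcx and Nefl. The summed neuronal marker level was 90.6, 63.4, 21.3 and 22.2 FPKM, almost all of it Eno2 and Tubb3. Tubb3, a beta-tubulin of neurons, read 40.6, 37.8, 7.17 and 7.84 FPKM. It was 5.17-fold lower in the combined library (4.58 to 5.86, exact conditional binomial 95% interval), and low in both OGD libraries. With length and GC trends removed, the log2 ratio of Tubb3 went from -2.23 to -1.06 and that of Eno2 from -1.83 to -0.92. Fibroblast and mesenchymal markers were plentiful, with 7 of 9 passing and a summed level of 1179, 914.4, 1097 and 1365 FPKM. Col1a1, a chain of type I collagen, stood at 393 FPKM at baseline and Acta2, smooth muscle actin, at 634 FPKM. Glial markers passed in 1 of 12 cases and endothelial markers in 1 of 7. Microglial and immune markers passed in 3 of 8 cases, Ptprc and P2ry12 being at 0 in every library, and progenitor markers in 6 of 9, with Vim, an intermediate filament gene, at 2470, 871, 4665 and 4087 FPKM. The part of cell make-up in the results below was not tested. In a bulk library, fewer cells of a type and less RNA per cell cannot be told apart. Intervals here and below cover counting error only, since PCR reads without molecular identifiers are not independent molecules, and they compare libraries, not conditions.

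Among genes at 5 FPKM or more in either library, the 15 highest were Hspa1b, Hmox1, Il1rl1, Hspa1a, Dpp7, Grem1, Hsp90aa1, Nr4a1, Cpeb4, Gclc, Nr4a2, Gsta1, Impact, Zfand2a and Hsph1. All 15 were also higher in the OGD library than at baseline, and Hmox1, Dpp7 and Gsta1 were lower in the combined library than in OGD alone. Cpeb4, Nr4a2, Gsta1 and Impact were under 1 FPKM at baseline and passed the filter through their combined values, so they had to be higher. Il1rl1, the receptor of interleukin 33, read 15.02, 5.16, 196 and 539 FPKM and was 35.9-fold higher (33.5 to 38.5). Its order was labelled knockdown, baseline, OGD, combined. Grem1, a secreted antagonist of bone morphogenetic proteins, followed the same order with 4.75, 2.65, 45.1 and 139 FPKM, a 29.3-fold difference (26.8 to 32.1). Dpp7, a dipeptidyl peptidase of lysosomes and vesicles, differed in order: 17.1, 35.1, 692 and 484 FPKM. It was 28.4-fold higher than baseline (25.9 to 31.2). Cpeb4, which binds cytoplasmic polyadenylation elements in mRNA, was nearly silent outside OGD at 0.29 and 0.19 FPKM, reached 3.64 in OGD and 27.5 in the combined library, and rested on 34 counts at baseline. Gsta1, a glutathione transferase, rested on 5 baseline counts and 364 in the combined library, and reads may be shared with its near copy Gsta2.

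**Figure D2:**
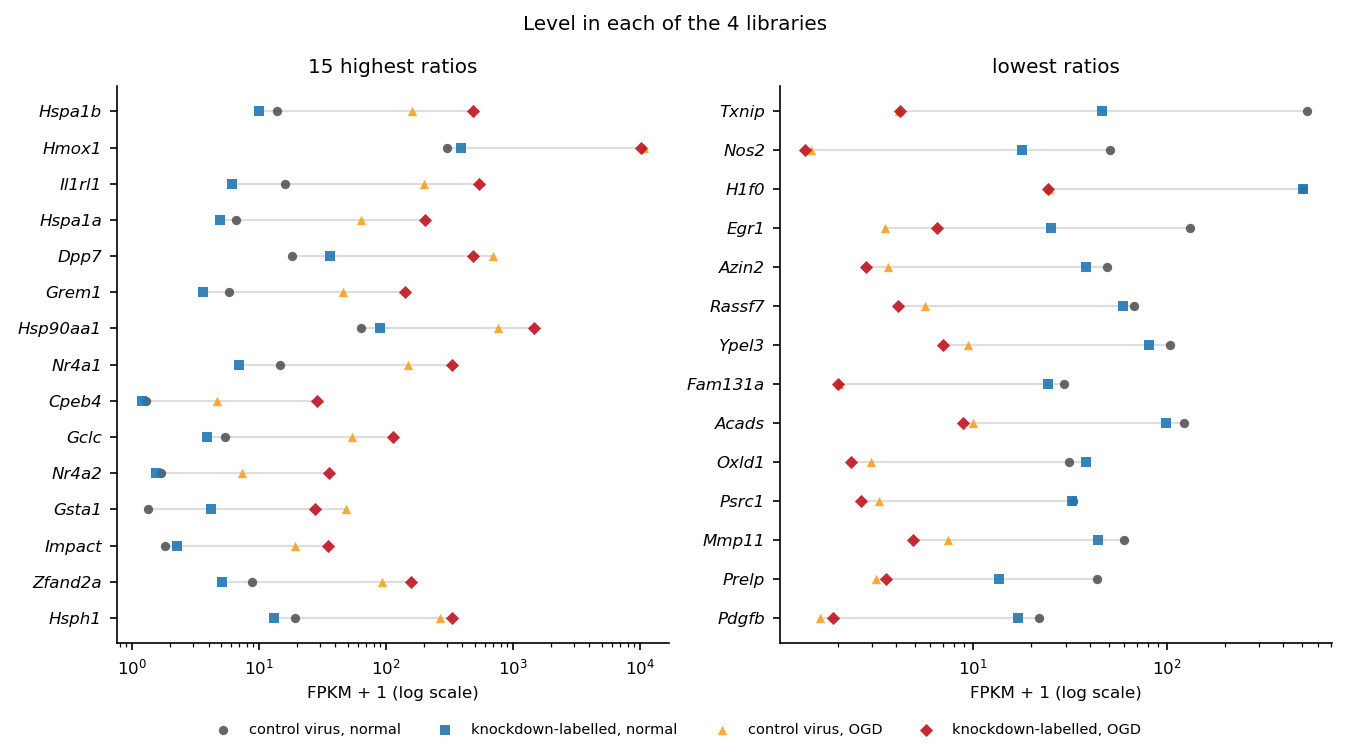
Points give FPKM + 1 on a log axis in each of the 4 libraries for the 15 highest (left) and the lowest (right) ratios of the combined over the baseline library among genes with well-counted values. In all of these genes both OGD libraries lie on the same side of both normal-culture libraries, as for Txnip at 3.16 and 3.21 FPKM against 528 and 45.3.

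Among the 15 lowest were Txnip, Nos2, H1f0, Egr1, Azin2, Rassf7, Ypel3, Fam131a, Acads, Oxld1, Psrc1, Mmp11, Prelp and Pdgfb. Txnip, on chromosome 3 at 96557957 to 96561883 of GRCm38, read 528, 45.3, 3.16 and 3.21 FPKM, from 22249 counts at baseline to 115 in the combined library. It was 165-fold lower (137 to 199), the largest difference in this direction among the genes named by rule, and the labelled-knockdown library was already far below baseline. In the list of Txnip and glucose-sensing genes 2 of 6 measured members were lower and 0 higher; the median of 0.03 changed sign under 5 of 13 alternatives. Nos2, the inducible nitric oxide synthase, read 49.8, 16.9, 0.45 and 0.35 FPKM and was 140-fold lower (99.8 to 204). H1f0, a linker histone gene, stood at 501.4 and 505.6 FPKM in the normal-culture libraries and at 23.7 and 23.4 in the OGD libraries. The level of H1f0 therefore split by culture condition with almost no gap between viruses. Acads, an enzyme of mitochondrial short-chain fatty acid oxidation, read 122, 97.9, 8.98 and 7.85 FPKM. Pdgfb, a chain of platelet-derived growth factor, was 23.5-fold lower (18.0 to 31.2) at 20.7, 16.1, 0.61 and 0.88 FPKM.

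Metallothioneins, small cysteine-rich proteins that bind zinc and copper, were among the most abundant transcripts of the combined library. Mt2, at position 94172664 to 94173568 of chromosome 8, read 624, 1947, 24459 and 10788 FPKM, and Mt1 read 789, 1829, 20427 and 9339. The combined library was 17.3-fold above baseline for Mt2 (16.8 to 17.8) and 11.8-fold for Mt1 (11.6 to 12.1), yet below OGD alone for both. Slc30a1, the plasma membrane zinc exporter that MTF1 also drives, read 0.45, 0.46, 10.1 and 19.5 FPKM and was 43.7-fold higher (32.9 to 59.3), with the combined library highest. Mtf1 itself read 3.48, 4.21, 4.77 and 6.25, a 1.80-fold difference. Slc39a10, a zinc importer, read 7.47, 1.27, 0.67 and 4.80. Of the 5 measured genes of the zinc list 3 were 2-fold or more higher and 0 lower, with a median of 3.56 against -0.01 for all genes. Slc30a1 passed the filter through its combined value, and with no filter the median over all 7 genes of the list was 0.69, the value of Mtf1, as Mt3 and Slc30a10 were near 0. The metallothionein and zinc genes took 0.0535% of all counts at baseline and 0.711% in the combined library.

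The promoter windows of Mt2, Mt1 and Slc30a1 are shown because these genes stood together in the ratio and are known targets of MTF1. The windows, from RefSeq on GRCm38.p6, run from 250 bases before to 50 bases after the transcript start, 5′ to 3′ on the strand of the gene. Capitals mark the core of the metal response element, searched as TGCACNC or TGCGCNC on both strands.
Mt2, chr8:94172368-94172667, strand plus: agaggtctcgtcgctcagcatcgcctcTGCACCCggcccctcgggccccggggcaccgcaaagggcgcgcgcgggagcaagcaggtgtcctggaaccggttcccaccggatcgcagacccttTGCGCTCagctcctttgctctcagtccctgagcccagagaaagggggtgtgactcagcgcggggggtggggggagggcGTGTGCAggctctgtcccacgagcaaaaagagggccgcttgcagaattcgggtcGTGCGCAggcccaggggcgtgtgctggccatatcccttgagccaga
Mt1, chr8:94178839-94179138, strand plus: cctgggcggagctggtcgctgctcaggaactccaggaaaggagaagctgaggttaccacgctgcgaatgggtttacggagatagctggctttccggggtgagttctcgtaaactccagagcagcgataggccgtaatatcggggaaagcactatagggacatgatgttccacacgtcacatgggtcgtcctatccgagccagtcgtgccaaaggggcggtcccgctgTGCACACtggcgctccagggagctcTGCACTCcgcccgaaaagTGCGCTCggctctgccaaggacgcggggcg
Slc30a1, chr1:191906531-191906830, strand plus: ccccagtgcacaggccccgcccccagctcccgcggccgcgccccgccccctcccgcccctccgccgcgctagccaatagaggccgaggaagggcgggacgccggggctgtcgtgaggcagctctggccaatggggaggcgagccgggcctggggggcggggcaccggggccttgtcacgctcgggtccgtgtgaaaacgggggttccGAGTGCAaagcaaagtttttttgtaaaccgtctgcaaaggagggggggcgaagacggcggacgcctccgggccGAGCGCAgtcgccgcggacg
The Mt2 window held 4 matches, that of Mt1 3 and that of Slc30a1 2. This short core is common: it was found in 25.7% of all 32851 promoter windows, in 36.0% of those of compared genes, in 38.7% of those 2-fold or more higher and in 33.0% of those lower. A match is a run of letters, and binding was not measured.

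Heat shock chaperones were higher as a group. Of 24 measured members of the cytosolic list, 19 were 2-fold or more higher and 0 lower, and the median log2 ratio was 1.51, or 1.87 with length and GC trends removed. The list took 0.974% of counts at baseline and 2.69% in the combined library. Hspa1b, an inducible HSP70 gene, read 12.9, 9.04, 160 and 481 FPKM and was 37.4-fold higher (35.0 to 40.0). Its neighbour Hspa1a read 5.64, 3.91, 62.8 and 202 FPKM. The coding parts of this pair are near copies, so how counts were split between them is uncertain, although both lay in the same order across libraries. Hsp90aa1, the inducible cytosolic HSP90, read 62.7, 88.1, 758 and 1457 FPKM and was 23.2-fold higher (22.2 to 24.3). Hsph1, an HSP110 nucleotide exchange factor, read 18.2, 12.2, 264 and 331 and was 18.2-fold higher (17.1 to 19.4). Hspa8, the constitutive HSC70, read 3265, 933, 8376 and 9443, placing it among the 5 most abundant genes of the combined library with a 2.89-fold difference. Also counted in the list were the mitochondrial chaperonin pair and the transcription factors Hsf1 and Hsf2. Of the pair, Hspd1 read 101, 71.8, 319 and 533 FPKM and Hspe1 204, 592, 1035 and 698, both 2-fold or more higher. Hsf1 read 55.6, 53.3, 48.8 and 43.9, and Stip1, a co-chaperone linking HSP70 and HSP90, 223, 97.2, 235 and 215, so neither reached 2-fold.

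Promoter windows of Hspa1b and Hsph1 are shown as examples of the group, with capitals at inverted pairs of the heat shock element unit, searched as GAANNTTC or TTCNNGAA on both strands.
Hspa1b, chr17:34959189-34959488, strand minus: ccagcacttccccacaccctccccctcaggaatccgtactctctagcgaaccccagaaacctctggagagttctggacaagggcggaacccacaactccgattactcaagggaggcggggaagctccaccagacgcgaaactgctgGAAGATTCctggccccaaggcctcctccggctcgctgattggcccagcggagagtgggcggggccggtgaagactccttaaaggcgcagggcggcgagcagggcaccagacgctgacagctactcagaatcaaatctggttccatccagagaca
Hsph1, chr5:149636287-149636586, strand minus: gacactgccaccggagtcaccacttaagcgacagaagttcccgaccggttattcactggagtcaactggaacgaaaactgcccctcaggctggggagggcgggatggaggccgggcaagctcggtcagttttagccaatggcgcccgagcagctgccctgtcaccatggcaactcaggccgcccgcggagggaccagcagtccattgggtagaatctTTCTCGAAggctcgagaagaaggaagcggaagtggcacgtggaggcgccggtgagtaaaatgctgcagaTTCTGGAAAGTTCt
Hspa1b held 1 match and this window of Hsph1 held 3, of which the last 2 overlap in a single run. Of the 20 list genes with a window in the table, 13 held a match in at least 1 window. Counted by window, as in the shares that follow, 15 of 27 windows of the list held a match (55.6%). The pattern was found in 15.1% of all windows, in 12.0% of windows of genes 2-fold or more higher and in 11.1% of those lower, so over all genes the shares were close.

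Hmox1, which degrades heme to biliverdin, carbon monoxide and iron, read 301, 391, 10729 and 10261 FPKM, and was 34.1-fold higher (33.4 to 34.9). It rested on 8257 and 252397 counts, and the OGD library was slightly above the combined library. Gclc, the catalytic subunit of the enzyme that limits glutathione synthesis, read 4.39, 2.86, 52.9 and 113, a 25.8-fold difference (23.3 to 28.8), while its modifier Gclm read 204, 128, 230 and 244. Sqstm1, the autophagy receptor p62, was 3.34-fold higher at 615, 594, 2020 and 2052 FPKM. Nqo1, a quinone reductase under NRF2 control, stood at 50.2, 54.7, 42.2 and 58.9 FPKM. Tkt, transketolase of the pentose phosphate route, was 4.20-fold lower at 309, 168, 85.1 and 73.4. Over the 25 genes of the NRF2 and glutathione list, 6 were 2-fold or more higher and 3 lower, near or below the shares of all genes (22.4% and 18.9%), with a median of 0.18, or 0.029 with length and GC trends removed. In the heme and iron list 6 of 15 were higher and 2 lower; the median of 0.16 became -0.10 with length and GC trends removed. Bach1, the repressor of Hmox1, read 1.41, 0.33, 0.62 and 6.49 FPKM, and Tfrc, the transferrin receptor, 1.27, 1.51, 4.62 and 11.4. Blvrb, a biliverdin reductase, went the other way at 276, 458, 121 and 77.6.

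Targets of ATF4 and CHOP formed another higher group. Of 31 members, all measured, 22 were 2-fold or more higher and 0 lower, with a median of 1.44, or 1.90 with both trends removed. Slc7a1, a transporter of cationic amino acids, read 7.73, 4.26, 26.7 and 114 FPKM, 14.7-fold higher (13.8 to 15.7) and far above OGD alone. Atf3, a stress-induced repressor, read 14.7, 9, 132 and 204, and Sesn2, an inhibitor of mTORC1, 6.36, 9.45, 60.8 and 69.9. Stc2, a secreted glycoprotein, was 15.8-fold higher at 2.08, 2.73, 21.9 and 32.9 FPKM. Atf4 itself read 263, 311, 744 and 747, nearly level between the OGD libraries. Ddit3, which encodes CHOP, read 146, 98.9, 491 and 263 and was 1.80-fold higher (1.70 to 1.90), below OGD alone. Gdf15, a stress cytokine, did not share the direction, at 54.6, 28.8, 30.04 and 27.7 FPKM.

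The endoplasmic reticulum list differed from that pattern in the OGD library. In the combined library 11 of 26 members were 2-fold or more higher and 2 lower, with a median of 0.71, whereas the median was 0.02 in OGD alone and -0.90 with the labelled knockdown alone. The combined median was 0.56 with length and GC trends removed. All-gene medians had the same order, at -0.01 in the combined library, -0.27 in OGD alone and -0.29 with the labelled knockdown alone, and the filter used the combined library. Hspa5, the lumenal chaperone BiP, read 447, 173, 401 and 1331 FPKM, so it was 2.98-fold above baseline (2.93 to 3.03) in the combined library alone. Canx, the lectin chaperone calnexin, read 50, 25.2, 69.5 and 175, and Dnajb9, a BiP co-chaperone, 2.19, 2.14, 5.72 and 17.4. Herpud1, of the degradation machinery, was already high in OGD at 87.9, 41.9, 238 and 316. Xbp1, a transcription factor of the unfolded protein response, was lower, at 91.0, 53.2, 21.5 and 42.2, as was Sdf2l1 at 64.7, 81.6, 25.4 and 26.8.

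In the glycolysis list 11 of 19 measured genes were 2-fold or more lower and 1 higher, with a median of -1.08, or -0.45 with length and GC trends removed. Pfkm and Pfkl, subunits of phosphofructokinase, read 66.5, 27.0, 8.24 and 8.23 FPKM and 250, 156, 34.2 and 50.8 FPKM. Slc16a3, the lactate exporter MCT4, read 7.50, 6.54, 0.33 and 0.24 and was 31.4-fold lower (18.7 to 57.1) per length, but 13.6-fold lower in counts scaled to depth, since its effective length was 1169 nt at baseline and 2693 nt in the combined library. Hk2, an inducible hexokinase, was 4.05-fold higher at 11.5, 7.05, 33.6 and 46.5. The glucose carrier Slc2a1, at 62.9, 65.6, 83.6 and 126, and the monocarboxylate carrier Slc16a1, at 8.02, 5.84, 8.50 and 16.4, were also above baseline, with log2 ratios of 0.99 and 0.95 that fell just short of 2-fold on the FPKM + 1 scale. Hif1a itself read 10.2, 7.81, 8.80 and 64.1 FPKM, 6.30-fold above baseline (5.86 to 6.78), with the other 3 libraries close together. Its log2 ratio of 2.54 was 1.09 with length and GC trends removed. Among HIF subunits and hydroxylases 1 of 8 measured genes was higher and 0 lower. The median of that list was 0.04, and it changed sign under 4 of 13 alternatives. Of 32 measured HIF targets, 8 were 2-fold or more higher and 8 lower, near the shares of all genes (22.4% and 18.9%). Their median of -0.21 became 0.01 with length and GC trends removed. Vegfa, the endothelial growth factor, read 48.8, 26.5, 109 and 250 and was 5.13-fold higher (4.89 to 5.38). Ndrg1, a growth arrest gene raised by hypoxia, was 8.67-fold higher at 152, 58.4, 656 and 1322. In contrast Bnip3, a mitophagy receptor, read 134, 96.4, 10.6 and 29.1, Pdk1 (pyruvate dehydrogenase kinase) 31.1, 10.5, 3.30 and 8.04, and Ddit4 (an inhibitor of mTORC1) 65.3, 102, 38.9 and 59.4.

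**Figure D3:**
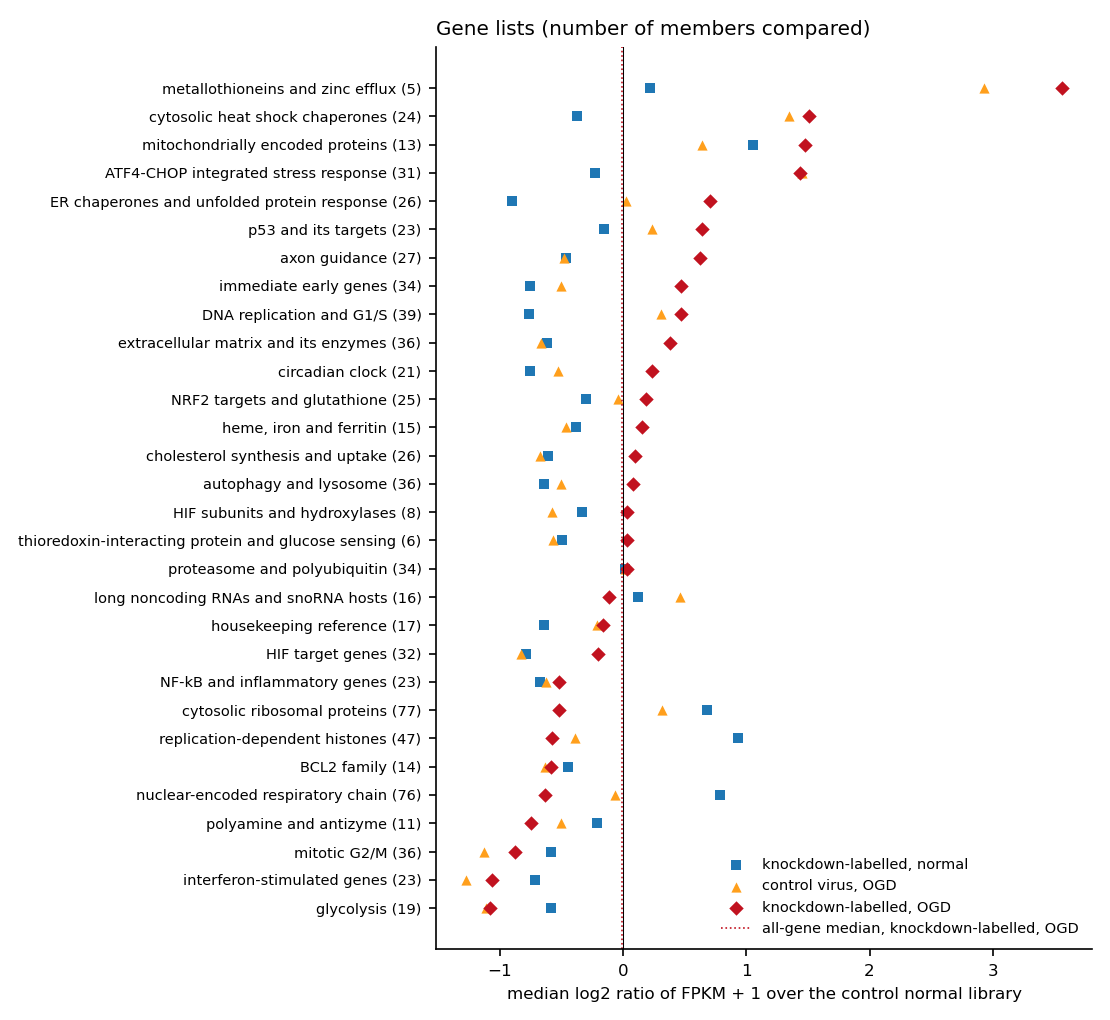
Medians of the log2 ratio over baseline across the members that passed the filter, for each list other than the cell type markers, with points for the combined library and for each factor alone and a dotted line at the all-gene median of -0.01 of the combined library. The metallothionein list, with 5 members passing, has the highest combined median, 3.56, followed by heat shock chaperones at 1.51 and the mitochondrially encoded proteins at 1.47.

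Immediate early genes lay in both directions. Of 34 measured, 14 were 2-fold or more higher and 10 lower, and the median of 0.47 stood against -0.50 in OGD alone and -0.76 with the labelled knockdown alone. With length and GC trends removed it was 0.82. The NR4A orphan receptors were high in the combined library: Nr4a1 read 13.7, 6.00, 147 and 332 FPKM, Nr4a2 0.69, 0.55, 6.4 and 34.7, and Nr4a3 0.20, 0.20, 3.08 and 15.2. Members of the EGR and AP-1 families lay on both sides of baseline. Egr1, a zinc finger factor of growth signalling, read 131, 24.4, 2.52 and 5.52 and was 23.6-fold lower (21.5 to 26.0). Junb read 879, 553, 76.8 and 102, and Fos 101, 11.0, 6.78 and 28.8, 3.51-fold lower (3.24 to 3.8). For Fos the other 3 libraries all lay below baseline, and the combined library was the highest of these. Fosb and Egr3 were higher, at 0.79, 0.56, 6.35 and 16.5 and at 0.60, 0.14, 1.43 and 11.8. Nr4a2, Nr4a3, Fosb and Egr3 were under 1 FPKM at baseline and passed the filter through their combined values. These genes therefore had to be higher, and they are part of the higher count of this list.

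In the NF-kB and inflammatory list 4 of 23 measured genes were 2-fold or more higher and 9 lower, with a median of -0.52. Ptgs2, the inducible cyclooxygenase COX-2, read 22.7, 4.16, 54.6 and 305 FPKM and was 13.5-fold higher (12.9 to 14.1). Ccl2, a monocyte chemokine, read 283, 422, 727 and 1056. The precursor of p52, Nfkb2, was 4.86-fold lower at 110, 76.7, 18.4 and 22.7, and the inhibitor Nfkbia read 187, 141, 32.8 and 42.03. Interferon-stimulated genes were lower in 13 of 23 measured cases and 2-fold higher in 0, with a median of -1.06. Irf7, a regulator of interferon genes, was 13.2-fold lower (10.1 to 17.5) at 26.3, 16.4, 2.47 and 1.99, and Tap1, a peptide transporter for antigen presentation, 11.6-fold lower at 24.1, 23.7, 2.28 and 2.07.

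For DNA replication and G1/S, 13 of 39 genes were 2-fold or more higher and 4 lower, with a median of 0.47, or 0.26 with both trends removed. Pcna, the sliding clamp of replication, read 288, 408, 531 and 1118 FPKM, and Cdc6, a licensing factor, 19.2, 4.29, 52.4 and 72.4. Tk1, thymidine kinase, was low at 279, 659, 138 and 93.7. For mitotic genes 6 of 36 were higher and 17 lower, with a median of -0.88, or -1.17 with length and GC trends removed. Plk1, a mitotic kinase, read 150, 132, 12.3 and 16.8 and was 8.91-fold lower (8.18 to 9.72), and Cenpa, the centromeric histone, read 511, 687, 111 and 83.5. Mki67, the Ki-67 antigen, went the other way at 2.04, 4.74, 5.14 and 7.14, 3.50-fold higher (3.17 to 3.87), although its log2 ratio of 1.42 was 0.42 with length and GC trends removed. Replication-dependent histones had 13 of 47 measured genes lower and 0 higher. Their median of -0.57 became 0.13 with length and GC trends removed, counts were low, and near-identical copies make single histone genes uncertain.

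The p53 list had 8 of 23 measured genes 2-fold or more higher and 3 lower, with a median of 0.64 that was 0.26 with length and GC trends removed. Mdm2, the ubiquitin ligase of p53, read 6.85, 3.51, 24.9 and 44.7, and Plk3, a stress-responsive kinase, 14.4, 11.4, 52.9 and 53.6. Trp53inp1, an autophagy-linked p53 target, rested on 6 baseline counts and reached only 2.13 FPKM. In the BCL2 family 3 of 14 measured genes were higher and 5 lower, with a median of -0.58, or -0.12 with both trends removed. The shares of all genes were 22.4% higher and 18.9% lower. The pro-apoptotic Bax read 143, 386.5, 578 and 324, Bmf 7.11, 1.61, 0.25 and 0.77, and the survival gene Bcl2l1 61.5, 44.6, 23.5 and 26.4.

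Of 77 cytosolic ribosomal protein genes 0 were 2-fold or more higher and 1, Rpl3, was lower. Their median of -0.52 was -0.14 with length and GC trends removed, and their share of counts was 10.6% at baseline, 16.1% with the labelled knockdown alone, 12.8% in OGD alone and 7.39% in the combined library. Processed copies of these genes may share their reads. Nuclear-encoded subunits of the respiratory chain had 14 of 76 lower and 0 higher, with a median of -0.63, or -0.22 with both trends removed. Over all genes 18.9% were lower and 22.4% higher, so the lower count was near the share of all genes and the higher count was below it. The 13 proteins encoded by mitochondrial DNA, subunits of the same complexes, were 2-fold or more higher in 9 cases and lower in 0, with a median of 1.47, or 0.84 with both trends removed. For mt-Nd1, a complex I subunit, values were 162, 681, 877 and 1132 FPKM, and for mt-Cytb, of complex III, 265, 510, 519 and 1189. In contrast mt-Atp8 read 1910, 342, 1009 and 1600. Whether polyadenylated RNA was selected is not given in the labels.

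The matrix and guidance lists had higher medians in the combined library than in either library with 1 factor. This order was not particular to them, since the sterol, clock and autophagy lists, among others, shared it. So did the all-gene medians, at -0.01 in the combined library, -0.27 in OGD alone and -0.29 with the labelled knockdown alone. The filter behind these medians used the combined library. Of 36 measured matrix genes 11 were 2-fold or more higher and 4 lower. Their median of 0.38 stood against -0.66 in OGD alone, and it became 0.10 with length and GC trends removed. Nid1, a basement membrane linker of laminin and collagen IV, read 17.3, 12.0, 23.8 and 197 FPKM and was 11.4-fold higher (11.0 to 11.9). Col3a1, type III collagen, read 115, 72.9, 127 and 366, and Thbs1, a matricellular glycoprotein, 90.9, 22.4, 42.9 and 255. In the axon guidance list 12 of 27 measured genes were higher and 5 lower. Its median of 0.63 was 0.22 with length and GC trends removed and -0.51 when genes under a mean of 5 FPKM were left out. Efnb2, a transmembrane ephrin ligand, read 2.86, 2.69, 5.84 and 37.2, and Sema3c, a secreted semaphorin, 44.1, 16.5, 30.8 and 149. Sema3f, another secreted semaphorin, was 7.34-fold lower at 90.8, 53.1, 6.93 and 12.4.

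For the smaller systems that follow, the shares of all genes were 22.4% higher and 18.9% lower. Sterol genes had 7 of 26 measured members higher and 3 lower. Among them Cyp51, a demethylase of the pathway, read 69.8, 31.3, 67.0 and 238 and Mvd, mevalonate diphosphate decarboxylase, 94.9, 108, 14.9 and 15.8 FPKM. The sterol list's median of 0.09 changed sign under 2 of 13 alternatives. Of 11 polyamine genes 2 were higher and 5 lower, with a median of -0.75, or -0.020 with length and GC trends removed. Among them were Amd1, which makes decarboxylated S-adenosylmethionine, 8.14-fold higher (7.16 to 9.28) and Oaz2, an antizyme, 10.7-fold lower (9.77 to 11.7) at 214, 185, 18.7 and 20.02. The clock list had 8 of 21 measured genes higher and 4 lower, and its median of 0.23 was -0.15 when genes under a mean of 5 FPKM were left out. Bhlhe41, a repressor, read 1.60, 1.61, 29.5 and 42.5, whereas Dbp, an output activator, read 35.1, 15.6, 5.37 and 3.88. In the autophagy and lysosome list 7 of 36 were higher and 8 lower, near the shares of all genes, and the list's median of 0.08 changed sign under 3 of 13 alternatives. Tfeb, a master regulator of autophagy and lysosome genes, was 10.7-fold lower (8.79 to 13.2) at 33.3, 38.0, 2.81 and 3.11. Ubb, a polyubiquitin gene, read 2069, 2294, 5796 and 4725 FPKM, while 4 of 34 genes of the proteasome list were higher and 1 lower, around a median of 0.03 that changed sign under 1 of 13 alternatives. Long noncoding RNAs and snoRNA hosts had 5 of 16 measured members higher and 4 lower, and their median of -0.12 changed sign under 5 of 13 alternatives. Nuclear-retained Malat1 was 10.2-fold higher (9.39 to 11.1) at 7.38, 10.7, 43.3 and 75.4, although its log2 ratio of 3.19 was 1.60 with length and GC trends removed. Of 17 genes often used as references 3 were higher and 1 lower, no more than the shares of all genes, around a median of -0.16 that changed sign under 3 of 13 alternatives. Actb, beta-actin, read 4442, 2845, 5851 and 5773 FPKM, and Gapdh, of glycolysis, 6809, 8990, 4670 and 4482.

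The combined library was the highest of the 4 for 4804 genes (38.7%) and the lowest for 2791 (22.5%). It lay 2-fold or more above each other library for 1113 genes (8.96%) and below each for 52 (0.418%). Because the filter admitted genes high in the combined library alone, these counts favour the highest position. With the filter on the mean of all 4 libraries they were 4561 highest, 2842 lowest, 1066 above and 53 below. Ddx3x, an RNA helicase of translation, led the former at 11.0, 5.70, 17.3 and 147 FPKM. Nid1 and Hif1a, described above, were among the leading genes, with Ipo7, Tcf12, Sp3 and Cpeb4. The latter set was led by Epb41l4aos, a snoRNA host, at 59.3, 82.2, 48.4 and 16.5, and included Selenow and Uqcc2. These genes were ranked by the gap to the nearest other library, so the gap is a description of the ranking. Length trends were not removed from these positions and gaps. Over OGD alone, the combined library had a median log2 ratio of 0.84 for genes of at least 5000 nt and -0.40 between 500 and 1000 nt. Over the labelled knockdown alone the medians were 1.35 and -0.82. The part of transcript length in these counts was not tested.

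**Figure D4:**
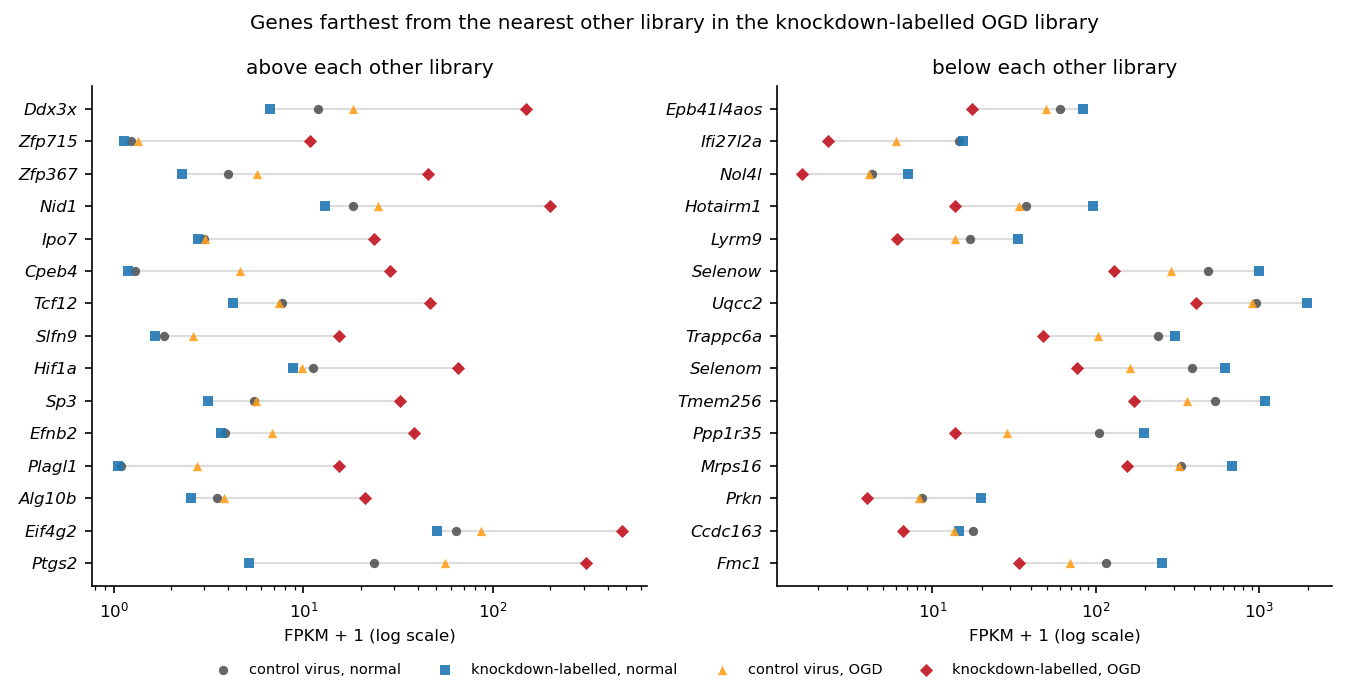
Points give FPKM + 1 on a log axis in each library for the 15 genes with the widest gap between the combined library and the nearest other library, above (left) or below (right). Ddx3x at 147 FPKM against 17.3 in the next library has the widest gap above, and the gaps below are narrower.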

How the data were processed

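RNA from 4 libraries, 1 for each group, was compared. Per the labels' protocols, total RNA was fragmented to about 200 bp, converted to cDNA with dUTP marking and amplified by 12 PCR cycles. The submitters' processing notes name TopHat2 and mm10. Versions, counting tool, annotation and any use of strand in counting were not given in the sources used here, so antisense partners cannot be told apart. Per the file headers, the authors deposited an expected count, an effective length and an FPKM per gene. The deposited expected counts were used for depth and intervals, and the deposited FPKM values for ratios.

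Computed here were log2 ratios of FPKM + 1 for genes averaging 1 FPKM or more over the baseline and combined libraries, counts at 2-fold, and list medians. Folds of named genes are ratios of FPKM with exact conditional binomial 95% intervals that take lengths as known. The interval calculation was checked on counts simulated from the Poisson model that it assumes, which cannot show whether that model holds for these libraries. Transcript GC came from the reference transcripts and was available for 12369 of 12427 genes. Python 3.11.15, pandas 2.3.3, SciPy 1.17.1 and, for scaling factors, edgeR 4.0.16 and DESeq2 1.42.0 in R 4.3.3 were used.

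Named by rule were the 15 highest and 15 lowest ratios among genes at 5 FPKM or more in either library and 100 or more counts over both, up to 4 members of each of 36 lists with the largest ratio in size, the 5 most abundant genes of each library and 11 fixed genes. Small RNAs, predicted genes and pseudogenes were left out of the ranking. Values of some genes named by the rule are left out of the text, although counts and medians include them. Other genes were named after their values were seen. The members and lists were chosen with earlier results of these data known. A gene that passed the filter through a high combined value alone had to differ, so list counts are descriptions. The deposited comparison tables were not used, including 4 columns of values per library. Alternatives for scaling, pseudocount, filter, length and gene classes were tried.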

Additional observations from a re-analysis of the deposited data

Results flagged for a closer look

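Fos, an AP-1 subunit, had opposite directions in OGD under the 2 viruses. The log2 ratio of OGD over normal culture was -3.71 under the control virus and 1.31 under the knockdown-labelled virus. The change of sign was not particular to Fos. The median of the immediate early list was -0.50 under the control virus and 1.36 under the knockdown-labelled virus, and the all-gene medians were -0.27 and 0.37. Each side is 1 library against 1, and the difference was not tested.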

How the results depend on the processing

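Counts of genes at 2-fold or more (2788 higher, 2352 lower) stayed within 1.5 times under every alternative except a pseudocount of 5, which gave 1482 higher and 1515 lower. The all-gene median of -0.01 was 0.16 with FPKM rescaled to equal sums, -0.075 with TMM-scaled CPM, 0.13 with upper-quartile scaling, -0.12 with a mean FPKM of 5 or more and 0.040 without a filter. Removing length and GC trends, an alternative chosen after seeing the data, gave 2074 higher and 1893 lower, changed the sign of 9 of 34 list medians, and kept 116 of 135 named genes at 2-fold. Trp53inp1 was reversed by it, at -0.038; the cause was not tested. No paired analysis was possible because each group has 1 library, and for the same reason no replicate could be left out. Low counts limit genes such as Gsta1 and Trp53inp1.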
